A study of Mus musculus with 8 samples.

Results

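The 10 genes described here belong to corticosteroid signalling: the receptors Nr3c1 and Nr3c2, the enzyme Hsd11b1 that makes active hormone inside cells, and 7 genes that glucocorticoids are known to induce in some tissue, namely Fkbp5, Sgk1, Tsc22d3, Errfi1, Zbtb16, Cdkn1a and Sult1a1. They were found by gene name on a mouse expression array, where 14 of the 39429 non-control probes carried one of these names. Of the 14 probes, 13 passed the filter on dim signal, so that all 10 genes were among the 15184 genes tested. Brains of mice fasted for 17 h (4 samples) were compared with brains of fed mice (4 samples), each on its own one-colour Agilent array of 60-base probes. The labels give the tissue as brain, with no strain, sex, age, hour of day or hormone level, and do not say that each array is a separate mouse, so p-values measure only the spread between these arrays. The question was how the brain's messenger RNAs differ after a fast.

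Glucocorticoids, corticosterone in the mouse, are released by the adrenal gland under the drive of the hypothalamus and pituitary, and fasting is a known stimulus. The hormone enters cells and binds the glucocorticoid receptor, encoded by Nr3c1, or the mineralocorticoid receptor, encoded by Nr3c2, which holds it more tightly and is enriched in the hippocampus. The bound receptors act on genes through short palindromic DNA elements, and several of the induced genes act back on the receptor or on hormone and growth factor signals.

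In the fasted brains 3 of the 10 genes rose and 1 fell. Sult1a1, which encodes a sulfotransferase for phenols, rose 3.10-fold, the receptor co-chaperone gene Fkbp5 rose 1.78-fold and the zinc finger repressor gene Zbtb16 rose 1.45-fold. Nr3c1 fell by 0.22 on the log2 scale, which is 1.16-fold lower. The other 6 genes, Nr3c2, Hsd11b1, Sgk1, Tsc22d3, Errfi1 and Cdkn1a, did not pass limma's test at an adjusted p of 0.05. Of all 26066 probes that passed the filter 16.9% passed this test, and of all 15184 genes 18.6% passed, with 9.48% higher and 9.11% lower in the fasted brains. The median log2 difference of the 10 genes was 0.19, beside -0.01 over all genes tested. The 10 genes were chosen with earlier results of these data known, so their counts and median are not independent evidence of a shift. For 4 of the 10 genes the fasted and fed arrays did not overlap, which held for 27.2% of all genes (14.1% higher and 13.1% lower in the fasted brains).

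**Figure D1:**
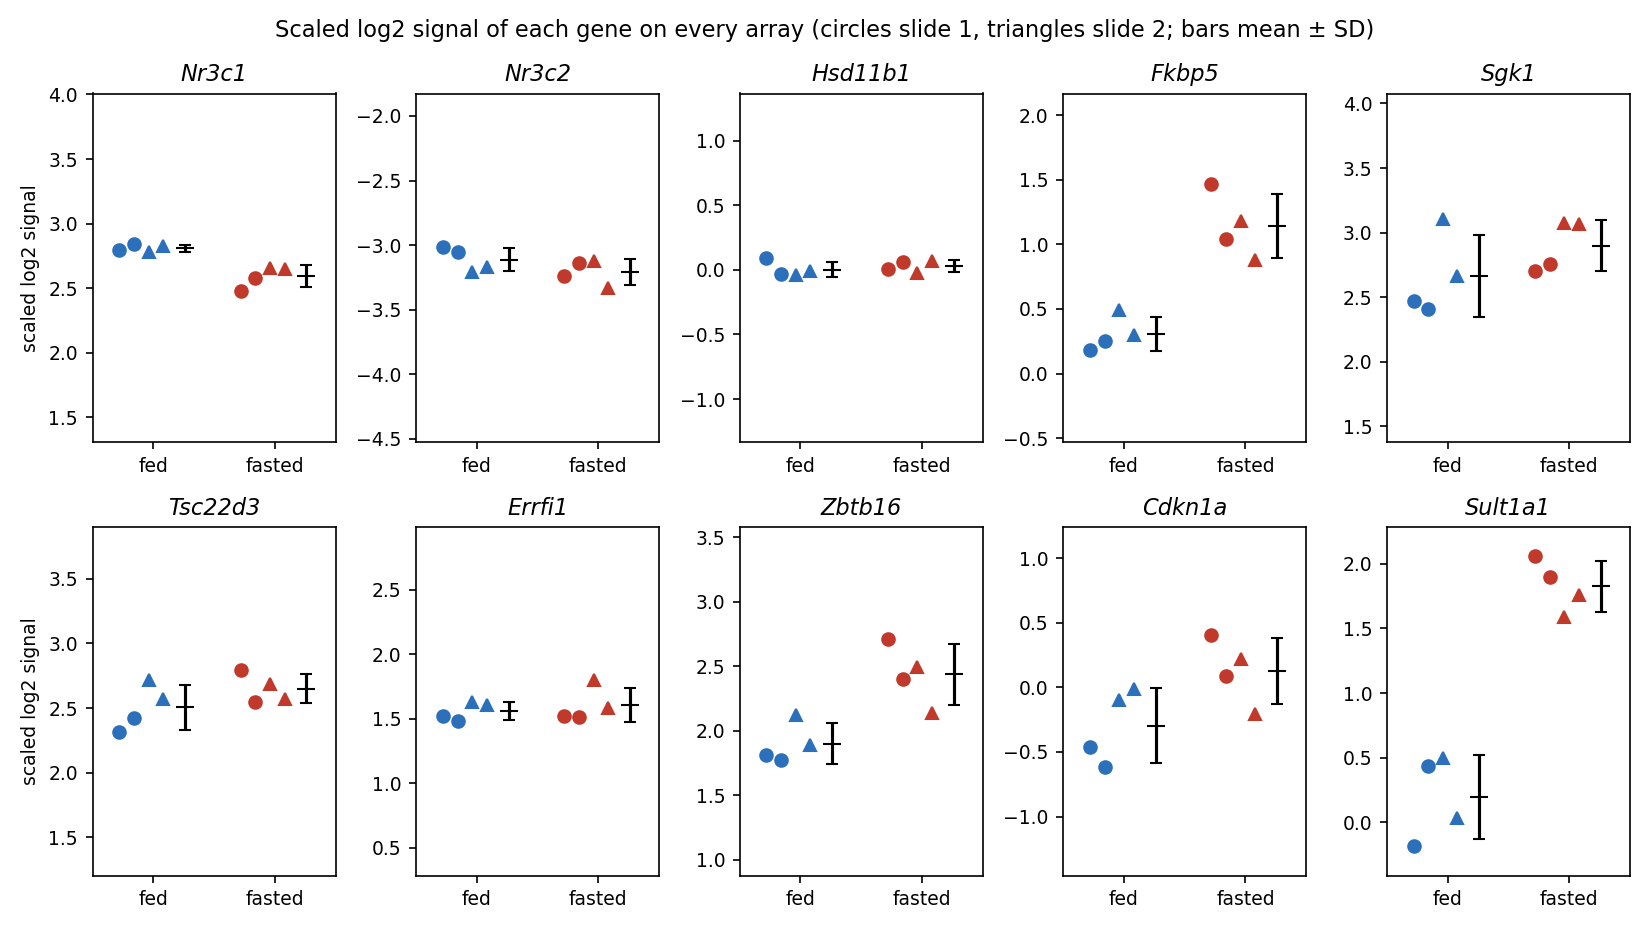
Scaled log2 signal (vertical axis, log2 of the intensity relative to the array's 75th percentile, the same span in each panel) of each of the 10 genes on the 4 fed and 4 fasted arrays, with circles for slide 1, triangles for slide 2 and bars for the mean and SD. The fasted arrays of Sult1a1, Fkbp5 and Zbtb16 all lie above the fed arrays, those of Nr3c1 all lie below, and the groups overlap in the other 6 panels.

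A level below is the scaled log2 signal, log2 of the probe's intensity minus log2 of that array's 75th percentile, and a difference is fasted minus fed on that scale. Levels of different probes cannot be set against each other. Between 62.3% and 69.0% of probes per array were well above background, and no spot was saturated. The arrays lay on 2 slides, each with 2 fasted and 2 fed arrays. Fasted arrays sat at positions 1 and 3 and fed arrays at positions 2 and 4, so position on the slide and fasting cannot be told apart. All 5 neuronal, 5 astrocyte and 5 oligodendrocyte markers passed the filter, as did 26066 of the 39429 non-control probes. Passing says only that signal was present. The hippocampal marker Tdo2 and the cerebellar marker Gabra6 did not pass it. Of 6 pituitary markers, Gh, Prl, Tshb, Fshb and Cga did not pass it.

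Of the receptors, only Nr3c1 passed the test. Its brighter probe, on chromosome 18, read 2.48, 2.58, 2.66 and 2.65 on fasted arrays 1 to 4 and 2.80, 2.84, 2.78 and 2.82 on fed arrays 1 to 4. Every fasted array was below every fed array, and the fasted arrays spread more widely, with an SD of 0.09 against 0.03. The difference was -0.22 (SE 0.05, n = 4 per group), a 1.16-fold lower level (95% CI 1.08 to 1.25, limma adjusted p = 0.0183). It was -0.29 on slide 1 and -0.14 on slide 2. The second Nr3c1 probe also had all fasted arrays below all fed arrays, at -2.75, -2.48, -2.45 and -2.43 against -2.39, -2.42, -2.36 and -2.35, but its difference of -0.15 (SE 0.07) did not pass the test (limma adjusted p = 0.196). The responses of the 2 probes differed by -0.07 in an exact two-sided permutation test over arrays (p = 0.171, adjusted over 3 such probe pairs 0.386, where 70 permutations allow no p below 0.0286). The Nr3c1 call was lost with the mean over its probes (limma adjusted p = 0.0544), with a normexp background correction (0.0542) and without fed replicate 2 (0.0508). In RNA of brain tissue, fewer cells that carry a transcript and less of it per cell cannot be told apart.

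Nr3c2, the mineralocorticoid receptor gene, was read by 1 probe (mm9 chr8:79766370-79766429). Its levels were -3.24, -3.14, -3.12 and -3.33 in fasted and -3.02, -3.05, -3.21 and -3.17 in fed brains. Fed arrays 3 and 4, both on slide 2, fell within the range of the fasted arrays. The difference was -0.10 (95% CI -0.24 to 0.05, limma adjusted p = 0.33). The responses of the 2 receptors differed by -0.12, with Nr3c1 the lower, in an exact two-sided permutation test over arrays (p = 0.114). With a normexp background correction the responses differed by -0.09 (same exact test, p = 0.457). The fasted minus fed difference of Nr3c1 minus Nr3c2 was below 0 in all 4 same-numbered pairs, at -0.10, -0.17, -0.21 and -0.005. Permuted within those pairs the exact p was 0.125, the smallest that 16 permutations allow, and within slides it was 0.0556, the smallest that 36 allow. The tests within pairs or slides thus could not reach 0.05, and the 2 receptors were not shown to respond alike or unequally.

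Hsd11b1 encodes the reductase that regenerates active corticosterone from its inert 11-keto form. Its probe (mm9 chr1:195048169-195048228) was printed in 10 spots per array, and the mean levels were 0.03 ± 0.05 in fasted and 0.00 ± 0.06 in fed brains (SD, n = 4). The difference of 0.03 had a 95% CI of -0.07 to 0.12, the narrowest interval among the 10 genes. That interval spans folds of 0.953 to 1.09.

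Fkbp5 encodes an immunophilin co-chaperone that lowers the receptor's affinity for hormone and is itself induced by hormone, which makes a short feedback loop. Its probe (mm9 chr17:28536060-28536119) read 1.46, 1.04, 1.18 and 0.88 in fasted and 0.18, 0.25, 0.50 and 0.30 in fed brains. The lowest fasted array stood above the highest fed array by more than the SD of either group, 0.25 and 0.13. The difference of 0.83 (SE 0.13) is 1.78-fold (95% CI 1.46 to 2.18, limma adjusted p = 0.0055). It was 1.03 on slide 1 and 0.63 on slide 2. Of all 15184 genes tested, 61 had a higher difference.

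Sgk1 encodes a kinase that regulates ion channels and transporters. Its levels (mm9 chr10:21719507-21719566) were 2.70, 2.75, 3.07 and 3.07 in fasted and 2.47, 2.41, 3.11 and 2.67 in fed brains. Both groups were higher on slide 2 than on slide 1, and the highest of the 8 arrays was fed array 3. The difference was 0.24 (95% CI -0.14 to 0.62, limma adjusted p = 0.358), 0.29 on slide 1 and 0.18 on slide 2. With the slide as a block it did not pass either (limma adjusted p = 0.113).

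Tsc22d3 encodes the leucine zipper protein GILZ, a repressor of inflammatory transcription. Its levels (mm9 chrX:137074094-137074153) were 2.79, 2.55, 2.68 and 2.57 in fasted and 2.31, 2.42, 2.72 and 2.57 in fed brains. On slide 1 both fasted arrays were above both fed arrays, by 0.30 in the mean, while on slide 2 the difference was -0.01. In all it was 0.15 (95% CI -0.07 to 0.36, limma adjusted p = 0.324). Errfi1 encodes an adaptor that inhibits the EGF receptor. Its probe (mm9 chr4:150242886-150242945) gave mean levels of 1.61 ± 0.13 in fasted and 1.56 ± 0.07 in fed brains (SD, n = 4), a difference of 0.04 (95% CI -0.12 to 0.21) that turned to -0.02 without fasted replicate 3.

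Zbtb16 encodes a transcriptional repressor of the BTB zinc finger family, also named PLZF. Its probe (mm9 chr9:48462419-48462478) read 2.71, 2.40, 2.49 and 2.14 in fasted and 1.81, 1.77, 2.13 and 1.89 in fed brains. Fasted array 4 and fed array 3, both on slide 2, almost touched. The difference of 0.54 (SE 0.13) is 1.45-fold (95% CI 1.19 to 1.77, limma adjusted p = 0.0252), with 0.77 on slide 1 and 0.31 on slide 2. This call rested on little margin: the adjusted p was 0.0516 to 0.0669 when fasted replicate 1, 2 or 3 or fed replicate 1, 2 or 4 was left out, and 0.0558 with no filter on dim probes.

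Cdkn1a encodes p21, an inhibitor of cyclin-dependent kinases. Its brightest probe (mm9 chr17:29237377-29237436), printed in 10 spots per array, read 0.40, 0.09, 0.22 and -0.20 in fasted and -0.46, -0.62, -0.10 and -0.01 in fed brains. Fasted array 4 fell among the fed arrays. The difference of 0.42 (95% CI 0.03 to 0.81) did not pass over all probes (limma adjusted p = 0.126). It was 0.79 on slide 1 and 0.06 on slide 2. The slides differed by -0.72 (SE 0.24), with an unadjusted limma interaction p of 0.0221 that was 1 after adjustment. No probe on the array passed that interaction test after adjustment. An unadjusted limma p under 0.05 was found for 519 of 26066, fewer than chance alone would give on average at that threshold. A second probe (mm9 chr17:29235299-29235358) differed by 0.40 (limma adjusted p = 0.163). The third probe (mm9 chr17:29227986-29228045) was well above background on 1 fasted array and on 0 fed arrays and was not tested.

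Sult1a1, which encodes an enzyme that couples sulfate to phenols and catechols, differed most among the 10 genes. Its brighter probe (mm9 chr7:133816605-133816664) read 2.06, 1.90, 1.59 and 1.76 in fasted and -0.19, 0.43, 0.50 and 0.03 in fed brains. The groups were far apart compared with their SDs of 0.20 and 0.33. The difference of 1.63 (SE 0.17) is 3.10-fold (95% CI 2.37 to 4.05, limma adjusted p = 0.00161), 1.85 on slide 1 and 1.41 on slide 2. Of all genes tested, 3 had a higher difference. The other probe (mm9 chr7:133816657-133816716) read 1.96, 1.74, 1.48 and 1.61 against -0.27, 0.30, 0.42 and -0.09, a difference of 1.61 (limma adjusted p = 0.00174). The 2 probes read adjacent stretches on the minus strand and overlap by 8 bases. They were hybridised with the same RNA and are not independent replicates. The upstream probe, which gave the difference of 1.61, is shown to make that overlap visible, with the shared bases in capitals:
Sult1a1 probe: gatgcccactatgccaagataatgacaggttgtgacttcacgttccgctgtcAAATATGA

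**Figure D2:**
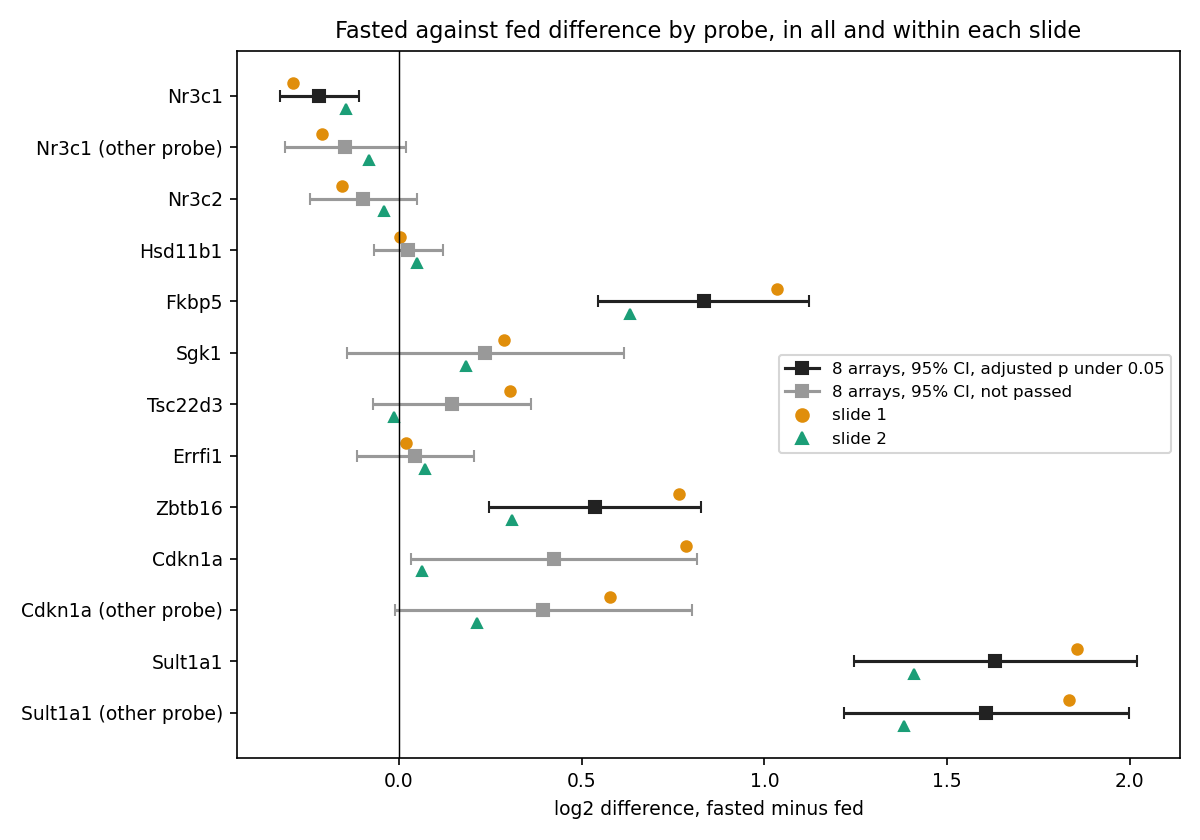
Log2 difference, fasted minus fed (horizontal axis), of the 13 probes that passed the filter, as squares with 95% confidence intervals over all 8 arrays, with the values within slide 1 (circles) and slide 2 (triangles). Both Sult1a1 probes lie near 1.6, and the slide 1 value of Cdkn1a, 0.79, stands apart from its slide 2 value, 0.06.

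Replicates were not ordered alike in every gene, but some arrays recurred. Fasted array 1 was the highest fasted array for Fkbp5, Zbtb16, Cdkn1a, Tsc22d3 and Sult1a1, and the lowest for Nr3c1 and Sgk1. The order fasted 1, 3, 2, 4 was shared by Fkbp5, Zbtb16 and Cdkn1a. Fed array 3 was the highest fed array for 6 of the 10 genes and the lowest for Nr3c1, Nr3c2 and Hsd11b1. Without fasted replicate 1 the difference of Fkbp5 was 0.73 (limma adjusted p = 0.00987) and that of Sult1a1 was 1.56 (limma adjusted p = 0.00697).

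**Figure D3:**
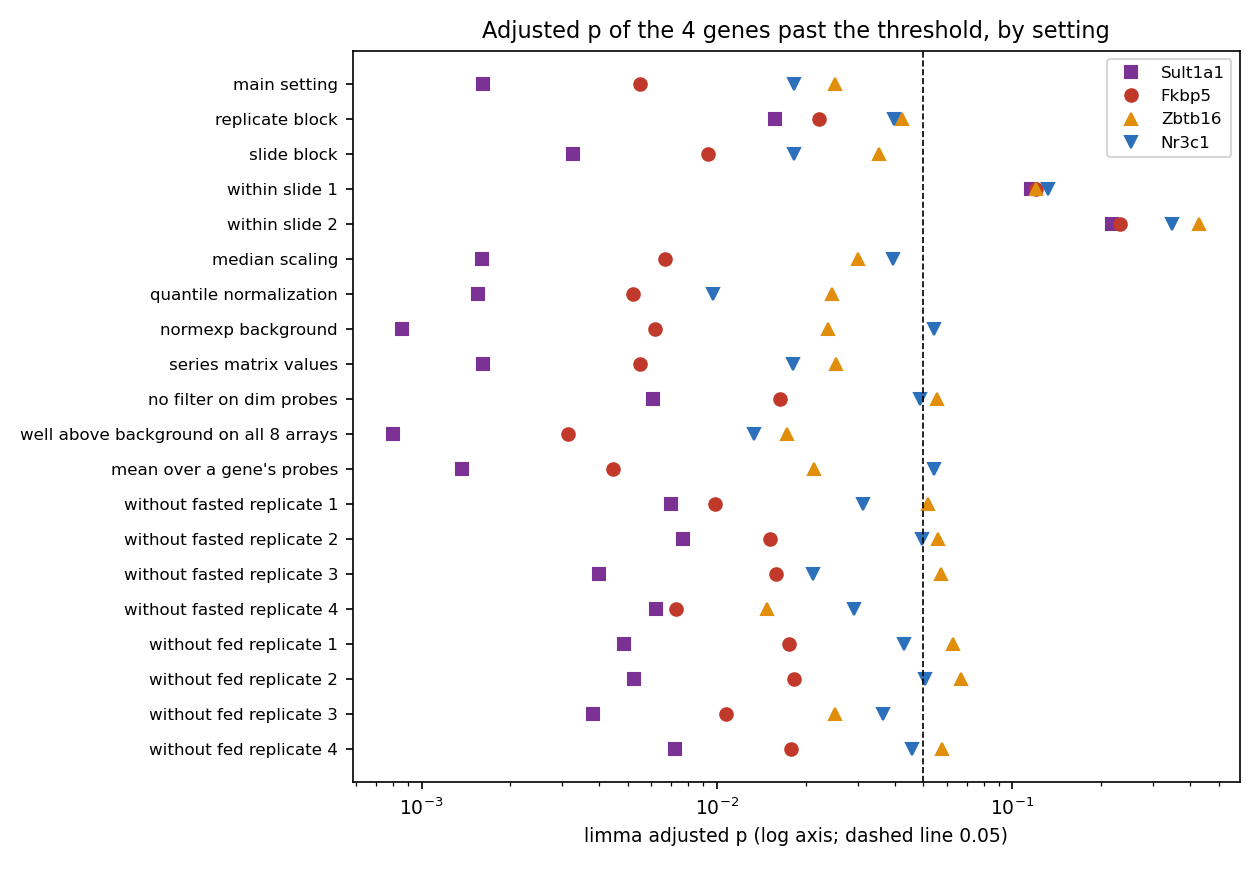
Adjusted p from limma (horizontal log axis, dashed line at 0.05) of Sult1a1, Fkbp5, Zbtb16 and Nr3c1 in the main setting and under each of 19 alternatives. Sult1a1 and Fkbp5 stay left of the line except within a single slide, while Zbtb16 and Nr3c1 cross it under several settings.

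The promoters of these genes were read from RefSeq windows on GRCm38.p6, from 250 bases before to 50 after a transcription start. Windows were found for 8 of the 10 genes, 17 in all, with none for Nr3c1 and Zbtb16. The palindromic glucocorticoid response element, the letters GNACA and TGTNC with any 3 bases between them, was searched on both strands and found in 156 of 32851 windows of all genes (0.475%). Among the 10 genes 1 window of 17 held it, a start of Sgk1. The shorter letters TGTTCT, a single arm that can overlap the full element, were found on either strand in 6233 windows of all genes (19.0%) and in 5 of the 17, in Sgk1, Sult1a1 and Tsc22d3. Shown are the 250 bases before the start for that Sgk1 window (plus strand, start at the right end, chr10:21993640-21993939 for the whole window), for Sult1a1 (minus strand, chr7:126676369-126676668) and for Fkbp5 (minus strand, chr17:28486100-28486399), which carry the full element, single arms only and neither. Capitals mark the matches:
Sgk1: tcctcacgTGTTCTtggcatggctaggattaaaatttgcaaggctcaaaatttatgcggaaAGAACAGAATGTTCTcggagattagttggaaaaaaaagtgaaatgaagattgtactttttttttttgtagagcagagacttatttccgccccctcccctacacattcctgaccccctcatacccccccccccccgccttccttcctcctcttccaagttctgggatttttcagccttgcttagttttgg
Sult1a1: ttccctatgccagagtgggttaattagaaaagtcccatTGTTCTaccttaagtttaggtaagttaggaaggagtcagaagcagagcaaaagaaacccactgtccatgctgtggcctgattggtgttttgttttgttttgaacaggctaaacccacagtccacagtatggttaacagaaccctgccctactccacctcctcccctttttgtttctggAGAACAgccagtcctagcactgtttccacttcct
Fkbp5: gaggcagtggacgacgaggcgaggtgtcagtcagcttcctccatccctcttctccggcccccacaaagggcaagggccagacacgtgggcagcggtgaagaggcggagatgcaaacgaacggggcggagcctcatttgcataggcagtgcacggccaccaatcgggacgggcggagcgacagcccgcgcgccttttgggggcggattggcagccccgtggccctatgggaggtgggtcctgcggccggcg
In Sgk1 the full element lies at positions -188 to -176, counted back from the start. In Sult1a1 the single arms begin at -212 and -34. Of the genes shown, Fkbp5 and Sult1a1 rose and Sgk1 did not pass the test. Response elements of Fkbp5 are known in its introns, outside this window. A match describes letters only, and no match says only that these letters are not in the window.

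A list of 40 further genes known to respond to glucocorticoids was read the same way, of which 38 were tested. In the fasted brains 19 rose, 1 fell and 18 did not pass, with a median difference of 0.26 against -0.01 for all genes. The share that passed was 52.6%, beside 18.6% of all genes tested, and 50% were higher, beside 9.48%. The genes of this list were picked with earlier results of these samples known, so its counts are not independent evidence of a direction. Plin4, which encodes a lipid droplet coat protein, rose 7.93-fold (difference 2.99, SE 0.30, limma adjusted p = 0.00154). Mfsd2a, the transporter that carries lysophospholipids across the blood-brain barrier, rose 2.30-fold (difference 1.20, SE 0.10, limma adjusted p = 0.000967). Pnpla2, which encodes adipose triglyceride lipase, rose 1.78-fold and the metallothionein gene Mt1 rose 1.36-fold. The 1 gene that fell was Per1, a clock gene, with a difference of -0.34 (limma adjusted p = 0.01). It was named after its value was seen. Among genes that did not pass, Klf9 differed by 0.07, Dusp1 by 0.11, Nfkbia by 0.16 and Ddit4 by 0.18. These were chosen here after their values were seen and do not stand for the list, in which 19 genes rose. Promoter matches of this list are not independent evidence either, since its genes were picked as known to respond to glucocorticoids. The full response element stood in a promoter window of 3 of the 35 genes of this list that have one (8.57%), against 0.537% of all genes. The single arm TGTTCT went the other way, in 2 of the 35 genes (5.71%) against 21.3% of all genes. Those with the full element were Mt1, Fam107a and Map3k6, singled out by that match, and the last pair rose by 0.64 and 0.28 on the log2 scale.

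**Figure D4:**
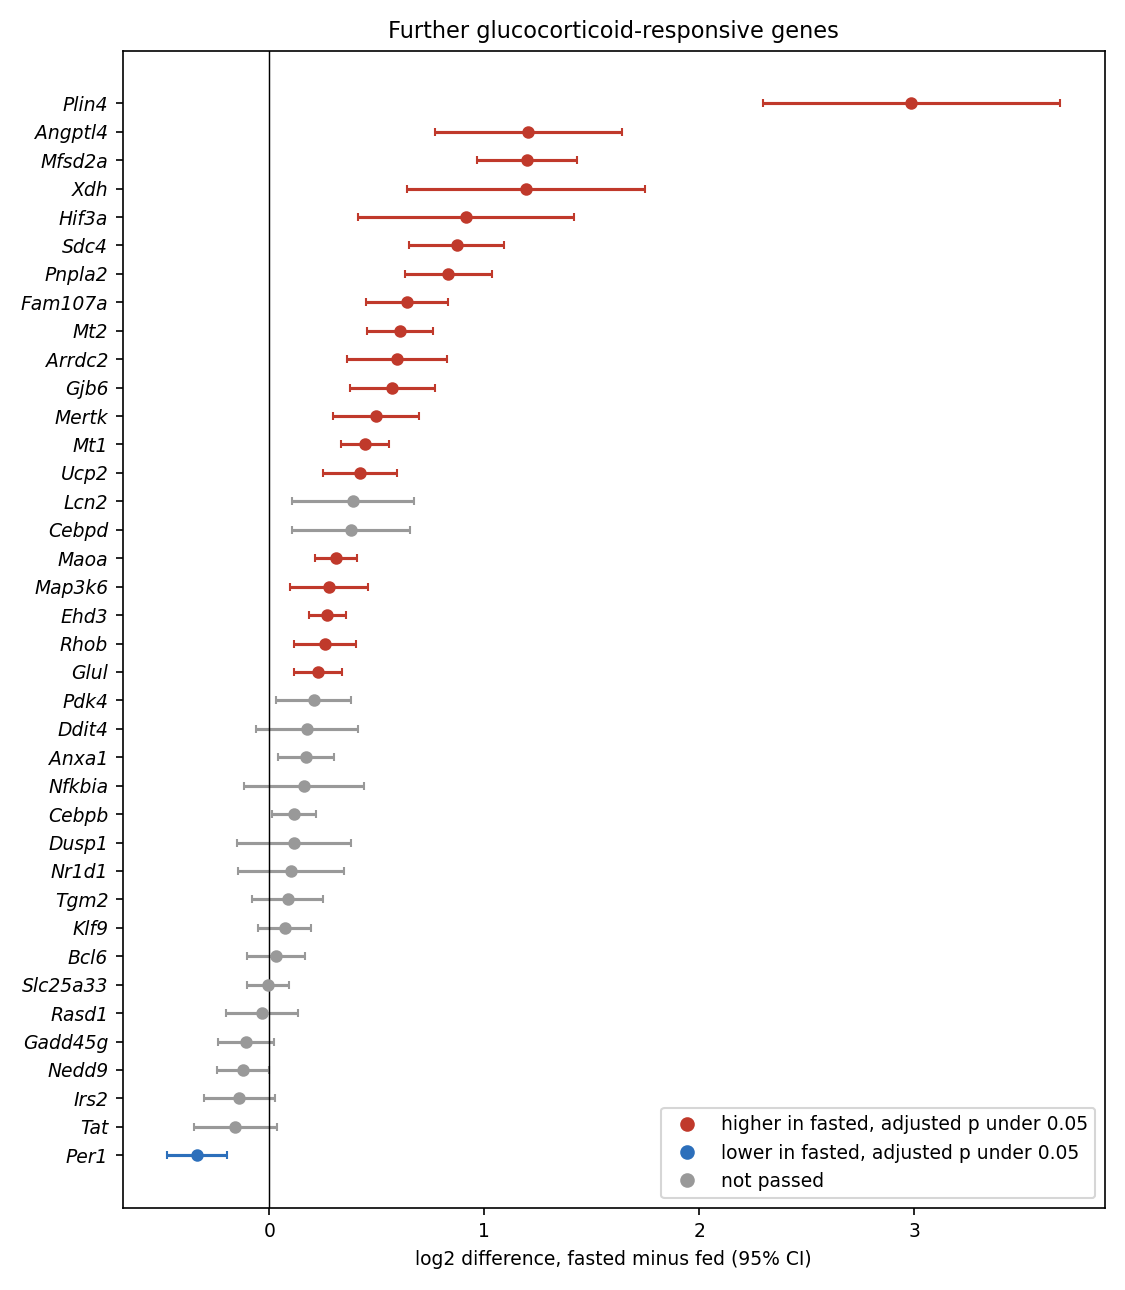
Log2 difference, fasted minus fed (horizontal axis), with 95% confidence intervals, of the 38 tested genes of the further glucocorticoid-responsive list, in order of the difference. Plin4 stands apart at 2.99, 19 genes are coloured as higher and Per1, at -0.34, as lower.

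Chaperones and immunophilins fold the receptor and hold it ready for hormone. Of 14 such genes tested, 5 fell, 0 rose and 9 did not pass, with a median difference of -0.12. The share that passed was 35.7%, beside 18.6% of all genes tested. With the mean over each gene's probes, 8 passed. Stip1, which bridges HSP70 and HSP90, fell by 0.28 on the log2 scale (limma adjusted p = 0.00362). The HSP40 genes Dnaja1 and Dnajb1 fell by 0.27 and 0.29, and the inducible HSP70 gene Hspa1a fell by 0.36. Hsp90ab1, the fifth, fell by 0.14 (limma adjusted p = 0.0287). Fkbp4, which encodes the immunophilin that competes with the Fkbp5 protein for the receptor complex, differed by -0.12 and did not pass (limma adjusted p = 0.0978). It and Hsp90ab1 were named after their values were seen.

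Receptor coregulators mostly did not pass the test, with 2 of 14 higher, 1 lower and a median of -0.01. Their share of 21.4% was near the 18.6% of all genes tested. Hdac3, a deacetylase of corepressor complexes, rose by 0.32 on the log2 scale and the coactivator gene Ppargc1a by 0.26, while the coactivator gene Ncoa3 fell by 0.16. Smarca4, a chromatin remodeller, differed by -0.07 and did not pass. Of 20 genes of steroid metabolism and transport, 11 were tested, 3 rose (27.3%) and 0 fell. Their median was -0.04, with 4 of the 11 differences above 0. H6pd, which supplies the NADPH that the Hsd11b1 enzyme uses, rose by 0.25 (limma adjusted p = 0.00448). The P-glycoprotein genes Abcb1a and Abcb1b, whose pump exports some corticosteroids at the blood-brain barrier, rose by 0.27 and 0.29. Srd5a1, a steroid 5-alpha reductase, differed by -0.10 and did not pass. Hsd11b2, the enzyme that inactivates corticosterone, did not pass the filter on dim signal.

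Of the stress axis, 10 of 15 genes were tested, 4 fell and 0 rose, with a median of -0.09. The share that passed was 40%, beside 18.6% of all genes tested. Crhr1, the receptor for corticotropin-releasing hormone, fell by 0.32 on the log2 scale (limma adjusted p = 0.00693). Ucn3, a related peptide, fell by 0.37, the prohormone convertase gene Pcsk1 by 0.28, and Nr5a1, a nuclear receptor of steroid-making and hypothalamic cells, by 0.15 (limma adjusted p = 0.0433). Only 1 or 2 of these genes passed when any 1 array other than fasted replicate 3 was left out, 1 with a normexp background or with no filter on dim probes, and 2 with scaling to the median.

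Genes around single members were also read from separate lists. Over all genes tested 18.6% passed. The shares were 33.3% for the Sgk1, 25% for the p53, 37.5% for the EGF receptor and 0% for the sulfotransferase list. Beside Sgk1, of 12 tested genes of aldosterone and Sgk1 signalling 3 fell and 1 rose, against a median of -0.03. The kinase gene Wnk1 fell by 0.22 on the log2 scale and the Sgk1 relatives Sgk2 and Sgk3 by 0.55 and 0.14, while Nedd4l, a ubiquitin ligase that Sgk1 phosphorylates, rose by 0.18. Between 2 and 3 of the 12 passed when 1 array was left out, 2 in all cases but 1, that without fasted replicate 3. With a normexp background 1 passed, and 2 passed with scaling to the median, with no filter on dim probes or with the mean over a gene's probes. Beside Cdkn1a, of 12 p53 target genes 2 rose and 1 fell: Btg2 rose by 0.70 and Sesn2 by 0.24, Gadd45a fell by 0.28, and Bax, at 0.07, did not pass. Beside Errfi1, of 8 tested genes of the EGF receptor family Egf rose by 0.32, Egfr fell by 0.15 and Hbegf by 0.16, and Nrg1, at 0.09, did not pass. Only 1 of these 8 passed with the replicate number as a block, 1 without fasted replicate 3 or fed replicate 2, and 0 without fasted replicate 1, 2 or 4 or fed replicate 1 or 4. Scaling to the median left 1, and a normexp background or no filter on dim probes left 0. Beside Sult1a1, 0 of 6 tested genes of sulfotransferases and of sulfate donor synthesis passed limma's test, and 1 had an unadjusted p under 0.05. This was Sult1c2, with a difference of 0.70 (limma adjusted p = 0.0861), and Sult2b1, Sult4a1 and Sult5a1 differed by -0.04, 0.02 and 0.11.

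For each of the 4 genes that passed, the 3 other genes most alike were those with the highest Pearson correlation of scaled log2 signal over the 8 arrays, among 15173 genes. These arrays share the fasting contrast and the slides, so the values describe likeness of pattern only. For Sult1a1 they were Kirrel2 (r = 0.993), Fbln5 (0.993) and Pygm (0.990). Kirrel2 differed by 0.95 and Fbln5, an elastic fibre gene, by 0.73. For Fkbp5 they were Sucla2 (0.996), Rin2 (0.993) and Tekt4 (0.992), of which Sucla2, a citric acid cycle enzyme gene, differed by only 0.10 and did not pass (limma adjusted p = 0.0562). For Zbtb16 they were the glucose transporter gene Slc2a1 (0.995), Xdh (0.987) and Rhoj (0.986), and for Nr3c1 Fbxw4 (0.985), Shf (0.985) and Enkd1 (0.983).

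Some cell type and region markers passed the test, in lists of few genes. Beside 18.6% of all genes tested, the share was 80% for microglia, 40% each for oligodendrocytes and astrocytes, and 33.3% for endothelial cells. It was 20% for hippocampus and 16.7% each for choroid plexus and hypothalamus, near the share of all genes. Of 5 microglial markers 4 fell. The summed level of the 5 was 16.0 to 18.3 times the array's 75th percentile in fasted and 19.1 to 20.8 in fed brains. Such a sum adds the linear signals of different probes, so the brightest probes weigh most, and it compares arrays only. Of 5 oligodendrocyte markers 2 fell, and the summed level was 77.8 to 86.2 in fasted and 87.2 to 93.7 in fed brains. Of 5 hippocampal markers tested, 1 rose, and the summed level was 8.94 to 9.98 in fasted and 6.87 to 7.96 in fed brains. Astrocyte markers had 1 higher and 1 lower of 5, with a summed level of 29.8 to 30.5 in fasted and 26.6 to 28.5 in fed brains. Endothelial markers had 1 higher and 1 lower of 6, with overlapping summed levels of 16.4 to 19.1 and 16.3 to 18.1. Of 6 markers each, 1 of choroid plexus and 1 of hypothalamus rose, Clic6 and Agrp. Neuronal, striatal, cerebellar and red blood cell markers had 0 past limma's adjusted test, with 1 neuronal, 1 striatal and 0 other markers of these at an unadjusted p under 0.05. The part of these marker differences in the values of the 10 genes was not tested.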

How the data were processed

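Brain RNA from 4 fasted and 4 fed samples was hybridised as Cy3-labelled cRNA, per the labels' protocols, and groups and replicate numbers come from the sample titles. The deposited scanner files hold each spot's intensity after background correction and detrending by Agilent Feature Extraction, version 11.0.1.1 per the file headers and 10.10.1.1 per the submitters' processing notes, on a design with mm9 coordinates. A deposited table of the whole series gives linear ratios for the same spots. Differences between its arrays followed the scanner values within an SD of 0.000179 log2 units. The constant behind each spot's ratio is not given in the sources used here.

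Here log2 of the processed intensity was taken minus log2 of the array's 75th percentile, without control spots and spots flagged as outliers, and repeated spots of the same probe were averaged. Probes well above background on at least 4 of 8 arrays were kept (26066). All kept probes were fitted with limma 3.58.1 in R 4.3.3, two-sided, with p-values adjusted by Benjamini-Hochberg over this whole set and called under 0.05. Each gene is represented by its brightest kept probe, and genes are probes whose accession matched RefSeq (27427 of 39429 probes matched). None of the 14 probes of the 10 genes matched under another symbol. The second Cdkn1a probe is annotated by an Ensembl transcript and was not matched. The mean over a gene's probes therefore left it out. The code was tested on simulated data. The number of arrays limits the precision.

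The genes and lists were chosen with earlier results of these data known. Named are the 10 genes, up to 4 genes of lowest p per list, and the 3 genes most alike each gene that passed. Genes named outside this rule were chosen after their values or promoter matches were seen. Same-numbered arrays share a slide and neighbouring positions, and their deviations from the group means correlated at 0.18 to 0.29, against 0.05 to 0.27 for other arrays of one slide and -0.39 to -0.10 across slides, so the number was also fitted as a block. Alternatives covered blocks, single slides, scaling, background, filters and each array left out.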

Additional observations from a re-analysis of the deposited data

Results flagged for a closer look

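Among 124 groups of 4 arrays, those of the 10 genes' probes and of the genes named from the lists or as most alike, 4 held an array far from the other 3, and chance alone sets apart about 1 group in 20. The second Nr3c1 probe read -2.75 on fasted array 1, where the other fasted arrays had a mean of -2.45. Egf read -4.57 on fed array 3, where the other fed arrays had a mean of -4.25. Nedd4l read 1.89 on fasted array 2, against a mean of 2.02 on the others. Nr5a1 read -2.38 on fed array 1, against a mean of -2.32 on the others. These are scaled log2 levels.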

How the results depend on the processing

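Sult1a1 and Fkbp5 kept their direction and passed in all 17 alternatives that used both slides. With the replicate block 4 of the 10 genes passed and 3957 probes passed over the array, and the block changed the call of none of the 10 genes and, of the counts per list, moved that of the EGF receptor list by over 1.5 times (1 against 3). Within a single slide of 2 against 2 arrays, 0 probes, 0 genes, 0 of the 10 genes and 0 list genes passed limma's adjusted test on either slide, while 5763 probes on slide 1 and 4021 on slide 2 had an unadjusted p under 0.05. With a normexp background 2846 probes and 1823 genes passed, and with no filter on dim probes 2605 and 1539, against 4417 and 2823. Leaving out 1 array gave 2782 to 3788 probes, 1774 to 2417 genes, 2 to 4 of the 10 genes (2 without fed replicate 2) and 33 to 43 of the list genes. The lowest of these counts came without fasted replicate 1 for probes (2782) and genes (1774), and counts of 2935 and 2879 probes, with 1861 and 1875 genes, came without fasted replicate 2 and fed replicate 2. Of values that did not pass, Errfi1 turned to -0.019 without fasted replicate 3 (-0.019 to 0.074 with 1 array left out), Tsc22d3 to -0.014 within slide 2, and the difference between the Cdkn1a probes' responses, 0.03 in the main setting, to -0.064 with quantile normalization and to between -0.12 and 0.17 with 1 array left out. The cause was not tested. No scaling moved the median over all probes by more than 0.1 (log2). A call of the dim probes depends on signal over background, which 1 of the 14 probes did not reach. The exact tests permuted within pairs or slides were added after seeing the data.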
